A study of Mus musculus with 12 samples.

Results

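The type IV collagen chains *Col4a1*, *Col4a2*, *Col4a3*, *Col4a4* and *Col4a5*, the matrix peroxidase *Pxdn* and the collagen chaperone *Serpinh1* were followed in cells sorted and labelled as glomerular endothelial cells (GEC). They were chosen by gene name, and 7 of 7 were measured in both subpopulations, among 19564 genes with a row in either. All 7 passed the filter on low counts in each of 5 comparisons. The study compared C57BL/6 wild type (WT) mice with Alport syndrome (AS) mice, labelled Col4a5 -/-, at 4 months of age. The WT and AS mice both carried the TekCre tdTomato reporter, in which Cre under the *Tek* promoter switches on a red fluorescent protein. Cells of digested glomeruli were sorted as dimtdT and brighttdT, and 1 library of each came from every mouse, so that 12 libraries of 6 mice formed 4 groups of 3 (WT-dimtdT, AS-dimtdT, WT-brighttdT and AS-brighttdT). The *Tek* promoter is also known to drive Cre in the blood cell lineage, so that the reporter alone does not set endothelial cells apart.

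Type IV collagen forms the sheet-like network of basement membranes. Its chains wind into trimers, the widespread α1α1α2 trimer and the α3α4α5 trimer of the mature glomerular basement membrane, which podocytes are known to secrete and which is lost in Alport syndrome. Peroxidasin forms the sulfilimine bonds that join neighbouring trimers outside the cell, and *Serpinh1*, also called Hsp47, holds the folded triple helix in the endoplasmic reticulum on its way to secretion. *Col4a5* is the mutated gene of these mice. In this mouse line the allele is known to place a stop codon in the message and not to remove the gene, so a read count on *Col4a5* reports the level of its RNA and does not test for the lesion.

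The genes of the chains lie head to head in pairs (Gencode M21 on GRCm38, all protein-coding). *Col4a1* (ENSMUSG00000031502) runs on the minus strand of chromosome 8 from 11312826 to 11198423, and *Col4a2* (ENSMUSG00000031503) on the plus strand from 11312805 to 11449287, so that 22 bases are transcribed from both strands. *Col4a4* (chromosome 1, 82448423 to 82586849, minus strand) and *Col4a3* (chromosome 1, 82586921 to 82722059, plus strand) start 72 bases apart. *Col4a5* (chromosome X, 141475385 to 141689234, plus strand) starts 1309 bases from *Col4a6*, the gene of the sixth chain. *Pxdn* (chromosome 12, 29937608 to 30017658, plus strand) and *Serpinh1* (chromosome 7, 99345376 to 99353239, minus strand) overlap no annotated gene. The strand used for counting is not given in the sources used here, so reads of genes on opposite strands could not be told apart. The antisense gene *Gm15418* at *Col4a1* had at most 20 counts in a brighttdT library, and *C430014B12Rik*, opposite *Col4a3*, had 2 to 41 counts in the brighttdT and 3 to 83 in the dimtdT libraries.

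The promoter windows of *Col4a1* and *Col4a2* are shown because these neighbours rose together in the AS-brighttdT GEC. They are RefSeq windows on GRCm38.p6 from 250 bases before to 50 bases after each start, chr8:11312777-11313076 on the minus strand for *Col4a1* and chr8:11312555-11312854 on the plus strand for *Col4a2*. Capitals mark the GC box GGGCGG and the CCAAT box, each read on both strands, so that CCGCCC and ATTGG are the same boxes on the other strand.
Col4a1: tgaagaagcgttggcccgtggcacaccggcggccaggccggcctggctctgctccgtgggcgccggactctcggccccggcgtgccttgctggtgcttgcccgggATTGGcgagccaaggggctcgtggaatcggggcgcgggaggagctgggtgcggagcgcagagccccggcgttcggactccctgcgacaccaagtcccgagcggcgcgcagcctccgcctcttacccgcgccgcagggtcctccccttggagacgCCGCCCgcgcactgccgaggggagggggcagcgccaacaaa
Col4a2: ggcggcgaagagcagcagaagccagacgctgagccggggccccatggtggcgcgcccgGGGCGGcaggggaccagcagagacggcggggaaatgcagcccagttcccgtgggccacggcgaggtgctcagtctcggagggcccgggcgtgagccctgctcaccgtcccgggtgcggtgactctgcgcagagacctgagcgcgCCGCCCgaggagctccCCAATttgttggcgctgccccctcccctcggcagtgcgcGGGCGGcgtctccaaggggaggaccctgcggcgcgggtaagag
The windows overlap by 78 bases, and each runs into the transcribed part of the other gene. Their GC content was 74.0% and 73.7%, above the median of 52.7% and the 90th percentile of 69.7% over 32851 promoter windows. The GC box was found 1 time in the *Col4a1* and 3 times in the *Col4a2* window, and 35.7% of all windows hold it. The box of the *Col4a1* window lies in the overlap and is the same site as the last box of the *Col4a2* window. Each window had 1 CCAAT box, which 37.4% of all windows hold, and neither had the TATAAA box, which 13.6% hold.

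The dimtdT libraries held 11440169 to 13923267 and the brighttdT libraries 13674045 to 15074909 counts on genes. Levels are given as CPM, the counts scaled to a common library total over all 12 libraries. Of 10 endothelial markers (such as *Tek*, *Cdh5* and *Emcn*), none was at 0 in a group, and their summed level was 9925 to 17854 CPM in the brighttdT, 666 to 1275 in the WT-dimtdT and 216 to 299 in the AS-dimtdT libraries. Markers of leukocytes summed to 3786 to 5954 CPM in the WT-dimtdT and 8100 to 10215 CPM in the AS-dimtdT libraries, with 10 of 10 markers present, against 13.8 to 66.3 CPM in the brighttdT libraries, where 7 of 10 markers had a row. Markers of podocytes were counted in all 4 groups, with none of 10 at 0 (882 to 1687 CPM in the WT-dimtdT, 852 to 876 in the AS-dimtdT, 1235 to 1723 in the WT-brighttdT and 1771 to 2017 in the AS-brighttdT libraries). *Podxl*, which endothelial cells also make, led this sum. The leukocyte sum was above the endothelial sum in all 6 dimtdT libraries, which at the RNA level goes against the label, so these are called dimtdT cells here. Such sums do not give shares of cells. The study reported from flow cytometry that both sorted subpopulations stained for the endothelial protein Ehd3. Proximal tubule markers, none of 12 at 0 in any group, reached 1627 to 7277 CPM in the WT-dimtdT libraries, highest in WT mouse 1, against 15.9 to 445 CPM in the AS-dimtdT libraries. They reached 492 to 3062 CPM in the WT-brighttdT and 57.9 to 572 CPM in the AS-brighttdT libraries. The Y-linked genes *Ddx3y*, *Eif2s3y*, *Kdm5d* and *Uty* had at least 45 counts in every library. In such bulk samples fewer cells of a type and less RNA per cell cannot be told apart.

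Reads on *Col4a5* numbered 771, 439 and 877 in the WT-dimtdT libraries against 51, 24 and 17 in the AS-dimtdT libraries, without overlap. They numbered 158, 69 and 78 in the WT-brighttdT libraries against 43, 104 and 55 in the AS-brighttdT libraries, and here the groups overlapped. The level of *Col4a5* RNA thus separated the genotypes in the dimtdT and not in the brighttdT libraries.

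**Figure D1:**
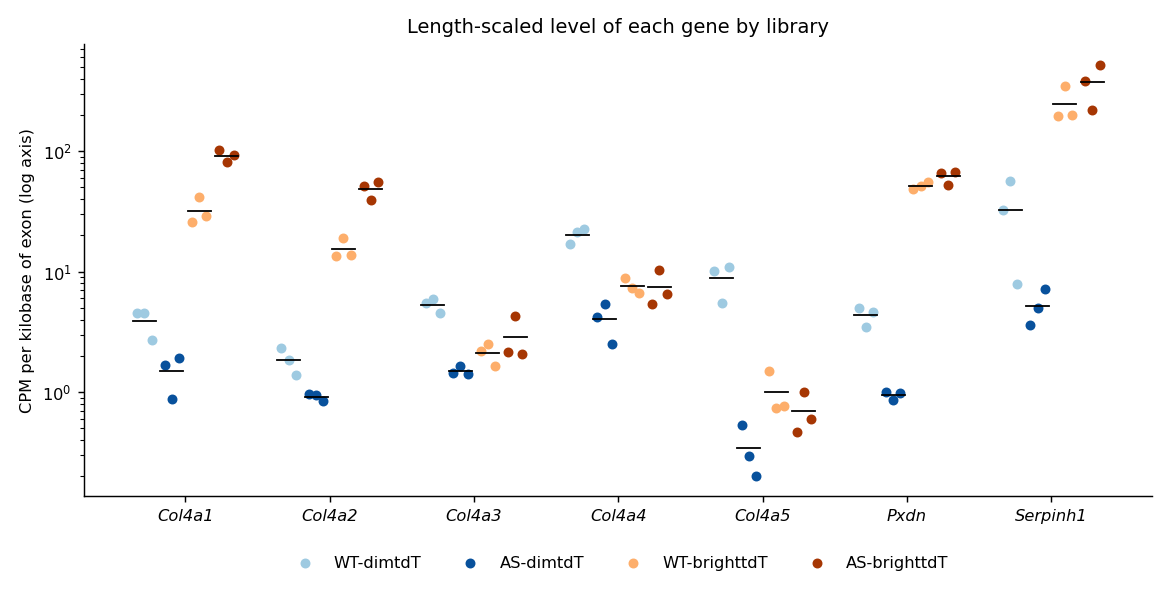
Level of each gene in each library, in CPM per kilobase of exon on a log axis, with 3 libraries a group as points and their mean as a line. Col4a1 and Col4a2 stood higher in all 3 AS-brighttdT than in all 3 WT-brighttdT libraries, and each of the 7 genes stood lower in all 3 AS-dimtdT than in all 3 WT-dimtdT libraries.

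To ask how genotype changed these genes in the brighttdT GEC, AS was compared with WT. *Col4a1* and *Col4a2* rose about equally, and the other 5 genes did not pass the test. *Col4a1* had 193, 310 and 214 CPM in the WT-brighttdT libraries. In the AS-brighttdT libraries it had 758, 612 and 688 CPM, each above every WT library. Its log2 fold change was 1.46 (SE 0.22, Benjamini-Hochberg adjusted p = 0.0345, edgeR quasi-likelihood fit), a 2.75-fold rise. *Col4a2*, its partner in the α1α1α2 trimer, had 88.6, 126 and 91.1 CPM in WT. It had 337, 258 and 366 CPM in AS, again with no overlap. The log2 fold change was 1.59 (SE 0.22, adjusted p = 0.0291 from the same test), a 3.0-fold rise. The test called 0.452% of the 14396 genes tested, 0.188% as higher and 0.264% as lower. Groups did not overlap for 24.5% of genes, 13.6% of all being higher and 10.9% lower.

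*Pxdn* did not pass the test in the brighttdT GEC. It had 464, 496 and 532 CPM in WT and 638, 506 and 648 CPM in AS, and the groups overlapped through AS mouse 2 alone. The log2 fold change was 0.19 with a 95% interval of -0.24 to 0.62 (adjusted p = 0.604), so a change as large as that of *Col4a1* lay outside the interval. *Serpinh1* had 478, 852 and 491 CPM in WT and 933, 534 and 1280 CPM in AS, a log2 fold change of 0.53 (interval -0.19 to 1.24, adjusted p = 0.372). The groups overlapped, with 1 WT library above the lowest AS library.

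Chains of the α3α4α5 trimer overlapped between genotypes in the brighttdT GEC. The log2 fold changes were 0.36 for *Col4a3* (interval -0.41 to 1.12, adjusted p = 0.585), -0.11 for *Col4a4* (interval -0.72 to 0.50, adjusted p = 0.857) and -0.60 for *Col4a5* (interval -1.65 to 0.45, adjusted p = 0.495). The AS-brighttdT library of mouse 2 was the highest of its group in all 3, with 42.9, 110 and 6.79 CPM, against 20.5 to 21.6, 57.6 to 68.7 and 3.13 to 4.00 CPM in the other two. The summed podocyte level did not set this library apart, being the middle one of the group (1919 CPM against 1771 and 2017 CPM). *Nphs1* (39.0 against 16.5 and 26.0 CPM) and *Wt1* (35.2 against 25.8 and 26.4 CPM) were highest in it. These markers were picked from the podocyte list after their values were seen and do not stand for the list. The library stood apart more in its proximal tubule markers (572 against 82.6 and 57.9 CPM). The same held for its markers of the loop of Henle, distal tubule and collecting duct (259 against 50.3 and 30.9 CPM). The part of podocyte or tubule RNA in these levels was not tested.

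The calls of *Col4a1* and *Col4a2* in the brighttdT GEC held under 10 of 16 alternatives each, and every alternative gave a rise (log2 fold changes of 1.19 to 1.66 for *Col4a1* and 1.22 to 1.74 for *Col4a2*). Among the settings that lost them were the fits without the library of WT mouse 3 (adjusted p = 0.0998 and 0.0861), AS mouse 1 (0.241 and 0.227) or AS mouse 3 (0.134 and 0.125). The fit with the proximal tubule markers as a covariate also lost them (0.197 and 0.180). So did edgeR's version 3 fit, the default of the edgeR release used (0.0558 and 0.0517).

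**Figure D2:**
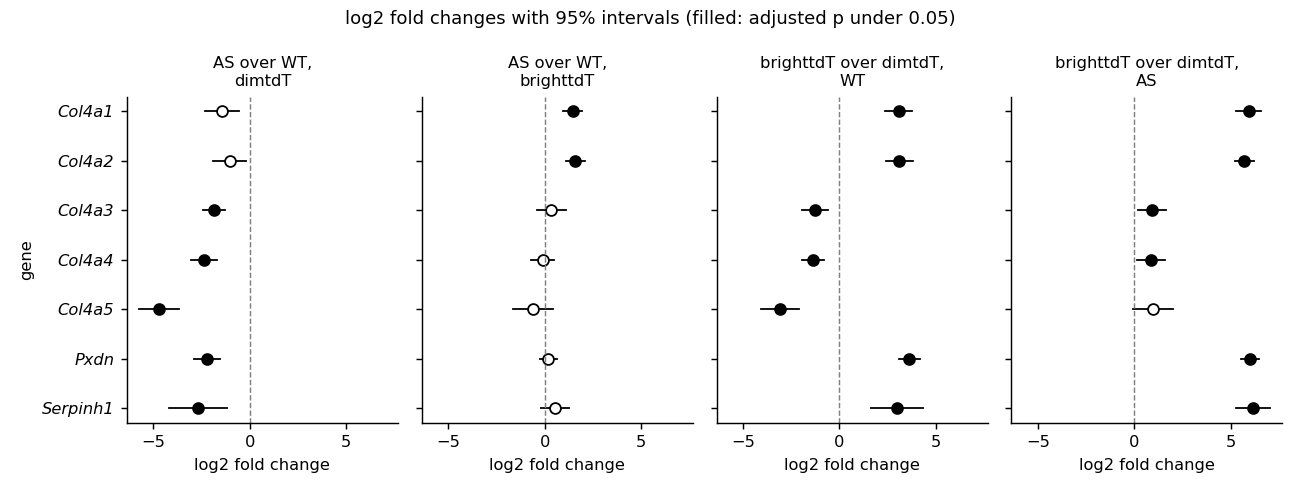
The log2 fold change of each gene in 4 comparisons, with its 95% interval as a bar and the point filled where the adjusted p was under 0.05; all panels share 1 axis. Col4a1 and Col4a2 are the genes filled in AS over WT in the brighttdT GEC, while Col4a3, Col4a4 and Col4a5 lie below 0 and the other 4 above 0 in brighttdT over dimtdT of WT.

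For the same question in the dimtdT cells the calls went down. Each of the 7 genes was lower in every AS-dimtdT than in every WT-dimtdT library, 5 of them passed the test as lower, and *Col4a1* and *Col4a2* did not. Among the 14637 genes tested 8.63% were called, 6.42% as lower and 2.21% as higher. Groups did not overlap for 31.2% of genes, with 16.2% of all lower. The largest difference among the 7 was that of *Col4a5*, with 67.6, 37.1 and 73.9 CPM in WT and 3.60, 1.99 and 1.36 CPM in AS. It fell by 4.69 on the log2 scale (SE 0.45, Benjamini-Hochberg adjusted p = 0.00982, edgeR quasi-likelihood fit), to a 25.8-fold lower level.

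*Col4a4* and *Col4a3*, its partners in the trimer, also fell. *Col4a4* had 179, 227 and 238 CPM in WT and 44.6, 57.7 and 26.8 CPM in AS (fell by 2.35, SE 0.29, adjusted p = 0.0166). *Col4a3* had 54.6, 59.0 and 45.3 CPM in WT and 14.3, 16.4 and 14.1 CPM in AS (fell by 1.86, SE 0.25, adjusted p = 0.0172). Their falls were 5.10-fold and 3.63-fold. For each of these chains the WT and AS ranges stood well apart.

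*Pxdn* had 48.1, 33.4 and 44.3 CPM in WT-dimtdT and 9.61, 8.37 and 9.58 CPM in AS-dimtdT (fell by 2.22, SE 0.28, adjusted p = 0.0169). *Serpinh1* had 79.8, 139 and 19.2 CPM in WT and 8.76, 12.2 and 17.4 CPM in AS. It fell by 2.68 (SE 0.65, adjusted p = 0.0438), with the WT library of mouse 3 close to the highest AS library. The call of *Serpinh1* held under 6 of 16 alternatives, with adjusted p of 0.0501 with library sizes alone and 0.0667 with edgeR's version 3 fit. The call was lost without WT mouse 1 or 2 (0.0844 and 0.0929, with a log2 fold change of -2.03 without WT mouse 2) and without AS mouse 1, 2 or 3 (0.162, 0.116 and 0.131).

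*Col4a1* and *Col4a2* were at lower levels in the dimtdT cells. *Col4a1* had 34.1, 33.5 and 20.3 CPM in WT and 12.5, 6.55 and 14.2 CPM in AS, a log2 fold change of -1.43 (interval -2.31 to -0.55, adjusted p = 0.0563). *Col4a2* had 15.4, 12.2 and 9.19 CPM in WT and 6.43, 6.22 and 5.59 CPM in AS, a log2 fold change of -1.04 (interval -1.91 to -0.17, adjusted p = 0.124). DESeq2 called both as lower (adjusted p = 0.00666 and 0.0494), and so did a fit of all 12 libraries (0.0113 and 0.0277). Without WT mouse 3 edgeR's test called *Col4a1* (adjusted p = 0.0347).

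Markers of several cell types moved with genotype in the same libraries. Of 9 endothelial markers tested, 6 fell in the AS-dimtdT cells, with a median log2 fold change of -2.18 beside -2.22 over the 7 genes and -0.02 over all genes tested. Of 10 podocyte markers 4 fell and 1 rose (median -1.40), of 12 proximal tubule markers 6 fell (median -4.25), and of 10 leukocyte markers 3 rose (median 0.61). Of 9 markers of the loop of Henle, distal tubule and collecting duct 6 fell (median -2.84), and their summed level was 796 to 1835 CPM in the WT-dimtdT against 50.3 to 288 CPM in the AS-dimtdT libraries, without overlap. Of 4 parietal epithelial markers 1 fell (median -1.62). Mesangial and mural markers summed to 188 to 394 CPM in the WT-dimtdT and 87.3 to 182 CPM in the AS-dimtdT libraries, without overlap, and their median was -1.01 with 0 of 7 called by edgeR or DESeq2 and 3 at an unadjusted p under 0.05. With the proximal tubule markers as a covariate 0 of the 7 genes were called by edgeR's test, with log2 fold changes of -4.23 for *Col4a5*, -1.81 for *Col4a4*, -1.61 for *Col4a3* and -2.09 for *Pxdn*. The summed tubule level did not overlap between the WT-dimtdT and AS-dimtdT libraries, so that this covariate and genotype cannot be told apart. Without the library of AS mouse 1 or AS mouse 3 none of the 7 was called (adjusted p of *Col4a5* 0.0599 and 0.0968), and then 0 and 1 of all genes were called, with 2972 and 3016 at an unadjusted p under 0.05.

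**Figure D3:**
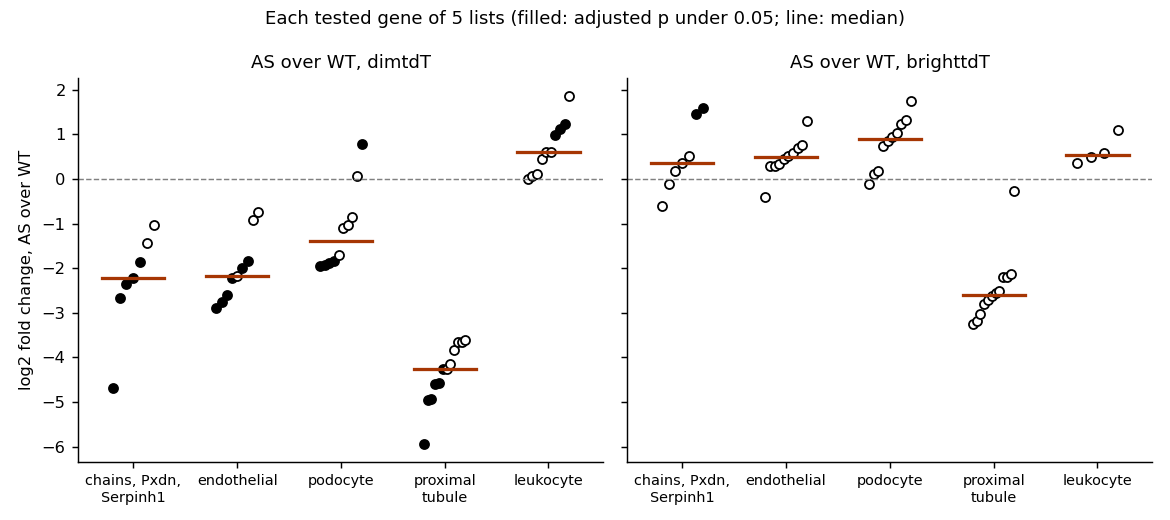
The log2 fold change of AS over WT for each tested gene of 5 lists, in the dimtdT (left) and the brighttdT GEC (right), with calls filled and the median as a line. In the dimtdT cells the median of the chains, Pxdn and Serpinh1 (-2.22) lies beside that of the endothelial markers (-2.18), and in the brighttdT GEC Col4a1 and Col4a2 are the filled points.

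In the brighttdT GEC the medians of the same lists were 0.48 over 10 endothelial, 0.90 over 10 podocyte, -2.59 over 12 proximal tubule and 0.53 over 4 leukocyte markers, beside 0.36 over the 7 genes. EdgeR's quasi-likelihood test called 0 genes of these marker lists, with 5 endothelial, 6 podocyte, 10 proximal tubule and 1 leukocyte markers at an unadjusted p under 0.05, and DESeq2 called 1, 2, 0 and 0 of them. For 10 markers of the loop of Henle, distal tubule and collecting duct the median was -1.84, with 0 called by edgeR, 3 by DESeq2 and 7 at an unadjusted p under 0.05, and a summed level of 426 to 558 CPM in WT and 30.9 to 259 CPM in AS. For 9 mesangial and mural markers the median was 0.12, with 0 called by edgeR, 2 by DESeq2 and 5 at an unadjusted p under 0.05. The 5 parietal epithelial markers had a median of -0.39 and a summed level of 57.1 to 71.6 CPM in WT and 108 to 150 CPM in AS, with 0 called by edgeR, 2 by DESeq2 and 2 at an unadjusted p under 0.05. The summed endothelial level overlapped between genotypes, 9925 to 15809 CPM in WT and 14913 to 17854 CPM in AS. The part of the marker shifts in the rise of *Col4a1* and *Col4a2* was not tested. The proximal tubule covariate given above covers 1 list and is close to genotype here. Its summed level overlapped between genotypes only through AS mouse 2 (572 CPM) and WT mouse 2 (492 CPM).

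The next comparison asked how the subpopulations differed within each genotype. In WT mice, 4 of the 7 genes were higher in the brighttdT GEC and 3 were lower, all past the test and without overlap. Of 14247 genes tested 25.3% were called, 13.8% as higher and 11.5% as lower, and 41.9% did not overlap, 22.2% higher and 19.7% lower. *Pxdn* led the higher genes with a log2 fold change of 3.62 (SE 0.25, adjusted p = 1.53e-05), a 12.3-fold difference. *Col4a2* was 8.60-fold higher (log2 3.10, SE 0.31, adjusted p = 0.000143), *Col4a1* 8.41-fold (log2 3.07, SE 0.31, adjusted p = 0.000145) and *Serpinh1* 7.86-fold (log2 2.97, SE 0.60, adjusted p = 0.00647). The chains of the α3α4α5 trimer went the other way. *Col4a5* was 8.51-fold lower (log2 -3.09, SE 0.44, adjusted p = 0.00094), *Col4a4* 2.57-fold lower (log2 -1.36, SE 0.25, adjusted p = 0.00384) and *Col4a3* 2.41-fold lower (log2 -1.27, SE 0.30, adjusted p = 0.0131). Without the brighttdT library of WT mouse 3 the call of *Col4a3* was lost (adjusted p = 0.0683). Without the dimtdT library of WT mouse 2, the one with the most *Serpinh1*, the log2 difference of *Serpinh1* was 3.68. Endothelial markers rose as a list in the same comparison, 10 of 10 with a median of 3.63, while 7 of 7 leukocyte markers fell, with a median of -7.92, and 7 of 10 podocyte markers fell and 2 rose, with a median of -1.93. Mesangial and mural markers had a median of 2.11, with 4 of 8 called higher, and summed to 755 to 1517 CPM in the WT-brighttdT libraries. Among the markers that moved with the lower chains, 3 of 10 of the loop of Henle, distal tubule and collecting duct were called lower (median -1.02), and 11 of 12 proximal tubule markers were negative (median -1.25), with 0 called by edgeR, 2 by DESeq2 and 2 at an unadjusted p under 0.05. The part of mesangial and mural RNA in the higher levels of *Col4a1*, *Col4a2*, *Pxdn* and *Serpinh1*, and of tubule RNA in the levels of *Col4a3*, *Col4a4* and *Col4a5*, was not tested.

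In AS mice the 4 genes that were higher in WT were higher by more, as the interaction given next tests. The same test called 55.1% of 14052 genes, 28.6% as higher and 26.5% as lower, and 62.4% did not overlap, 31.9% higher and 30.5% lower. Of the 7 genes 6 were called, all as higher. *Serpinh1* was 71.2-fold higher in the brighttdT GEC (log2 6.15, SE 0.40, adjusted p = 6.74e-07), *Pxdn* 64.4-fold (log2 6.01, SE 0.21, adjusted p = 3.16e-08), *Col4a1* 61.2-fold (log2 5.94, SE 0.29, adjusted p = 1.05e-07) and *Col4a2* 52.2-fold (log2 5.71, SE 0.23, adjusted p = 3.88e-08). Each of these 4 calls held under all 15 alternatives. *Col4a3* (log2 0.92, SE 0.32, adjusted p = 0.0326) and *Col4a4* (log2 0.87, SE 0.32, adjusted p = 0.0416) were also higher, opposite to their direction in WT. *Col4a5* had a log2 difference of 0.98 (interval -0.07 to 2.03, adjusted p = 0.103), and its groups and those of *Col4a4* overlapped. Without the dimtdT library of AS mouse 1 *Col4a5* passed (log2 1.48, adjusted p = 0.049). The calls of *Col4a3* and *Col4a4* held under 10 and 8 of 15 alternatives, and without the brighttdT library of AS mouse 2 the log2 values were 0.44 (adjusted p = 0.158) and 0.50 (adjusted p = 0.183). *Col4a3* was also lost without the dimtdT library of AS mouse 1, 2 or 3 (adjusted p = 0.085, 0.0516 and 0.0824), and *Col4a4* without that of AS mouse 1 or 3 (0.091 and 0.128) or the brighttdT library of AS mouse 3 (0.0634). Endothelial markers had a median of 6.31 in this comparison (10 of 10 higher), leukocyte markers -7.75 (7 of 7 lower) and podocyte markers 0.67 (5 of 10 higher, 2 lower). Mesangial and mural markers had a median of 3.49 (8 of 8 higher), with a summed level of 1016 to 1890 CPM in the AS-brighttdT libraries.

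The difference between the genotype effects was itself tested, in 1 fit of all 12 libraries with an interaction of genotype and subpopulation. All 7 genes passed, each with a more positive effect of AS in the brighttdT GEC than in the dimtdT cells. The test called 3.77% of 15084 genes, 2.96% in this direction and 0.815% in the other, and the median difference over all genes was 0.13, or -0.03 with library sizes alone. *Col4a5* differed by 4.14 on the log2 scale (SE 0.66, adjusted p = 0.00515), *Col4a1* by 2.92 (SE 0.42, adjusted p = 0.00426), *Col4a2* by 2.66 (SE 0.36, adjusted p = 0.00357) and *Pxdn* by 2.45 (SE 0.28, adjusted p = 0.00222). *Col4a4* differed by 2.28 (SE 0.42, adjusted p = 0.0107) and *Col4a3* by 2.25 (SE 0.44, adjusted p = 0.0133). *Serpinh1* differed by 3.23 (SE 0.77, adjusted p = 0.0339). The calls of 6 genes held under all 21 alternatives, while that of *Serpinh1* held under 11 of 21 and was lost with edgeR's version 3 fit (adjusted p = 0.0513) and without any 1 of 9 libraries (0.0511 to 0.0965). Without the dimtdT library of WT mouse 2 its difference was 2.55 (adjusted p = 0.0648). With the mouse as a replicate block all 7 were called and the count over all genes was 877 in place of 569. Endothelial markers differed by a median of 2.63 (7 of 10 called) and podocyte markers by 2.18 (6 of 10 called), beside 2.66 over the 7 genes. Mesangial and mural markers differed by a median of 1.46, with 8 of 8 positive, 0 called by edgeR or DESeq2 and 2 at an unadjusted p under 0.05. Proximal tubule markers differed by a median of 1.71, with 12 of 12 positive and *Aqp1* called, and parietal epithelial markers by 1.49, with 4 of 4 positive, 0 called by edgeR, 1 by DESeq2 and 1 at an unadjusted p under 0.05.

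To compare levels between genes, CPM were divided by the length of the merged exons. In the WT-brighttdT GEC the order was *Serpinh1* (248 ± 86.8 CPM per kilobase, SD, n = 3), *Pxdn* (51.6 ± 3.54), *Col4a1* (32.0 ± 8.35), *Col4a2* (15.4 ± 3.16), *Col4a4* (7.62 ± 1.10), *Col4a3* (2.13 ± 0.437) and *Col4a5* (0.994 ± 0.428), and no neighbours in this order overlapped. In the AS-brighttdT GEC *Col4a1* (91.9 ± 9.75) stood above *Pxdn* (61.9 ± 8.19), and *Pxdn* overlapped *Col4a2* (48.4 ± 8.44). In the WT-dimtdT cells *Col4a4* (20.2 ± 2.98) was the chain with the highest mean, and *Col4a5* (8.86 ± 2.93), *Col4a3* (5.31 ± 0.703), *Pxdn* (4.35 ± 0.792) and *Col4a1* (3.93 ± 1.05) overlapped with their neighbours, above *Col4a2* (1.85 ± 0.465). *Col4a5* was the lowest in the AS-dimtdT cells (0.345 ± 0.173), below *Col4a2* (0.918 ± 0.0664) without overlap. This order depends in part on the lengths used. In the authors' RPKM values *Col4a1* and *Col4a2* overlapped in the WT-brighttdT GEC, both stood above *Pxdn* without overlap in the AS-brighttdT GEC, and *Col4a4* stood above *Serpinh1* without overlap in the dimtdT cells of both genotypes.

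From these length-scaled levels the chains *Col4a3*, *Col4a4* and *Col4a5* made up 82.4%, 82.6% and 87.1% of the summed type IV chain level, *Col4a6* included, in the 3 WT-dimtdT and 63.2%, 77.2% and 57.7% in the AS-dimtdT libraries. They made up 24.0%, 14.8% and 17.1% in the WT-brighttdT and 5.01%, 11.5% and 5.82% in the AS-brighttdT libraries. Every brighttdT library lay below every dimtdT library. The share was lower in the brighttdT library of 6 of 6 mice, by 62.0 ± 6.94 percentage points (SD of the differences), with p = 0.03125 from an exact two-sided paired permutation test, the smallest p that 6 mice allow. After adjustment over the 6 tests of the ratio and the share it was 0.1875, which does not pass. The share was also lower in AS than in WT, by 11.2 percentage points in the brighttdT GEC and 18 in the dimtdT cells, without overlap in either group pair (p = 0.1 each, exact two-sided permutation test of 3 against 3, the smallest it allows, adjusted p = 0.2). Without *Col4a5*, the mutated gene, the share was 76.3%, 79.8% and 82.8% in WT-dimtdT and 61.0%, 76.5% and 56.5% in AS-dimtdT libraries, and the groups overlapped. In the brighttdT libraries it was then 14.0% to 21.8% in WT and 4.73% to 10.8% in AS, without overlap. In the authors' RPKM values the share with *Col4a5* was 86.2% to 89.5% in WT-dimtdT, 67.9% to 82.3% in AS-dimtdT, 21.6% to 32.3% in WT-brighttdT and 7.65% to 17.0% in AS-brighttdT libraries. Within the α3α4α5 chains, the counts of *Col4a5* per 100 counts of *Col4a4* were 37.8, 16.3 and 31.0 in WT-dimtdT, 8.08, 3.45 and 5.06 in AS-dimtdT, 10.7, 6.30 and 7.23 in WT-brighttdT and 5.44, 6.15 and 5.83 in AS-brighttdT libraries. This ratio was chosen after its values were seen and was not tested.

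**Figure D4:**
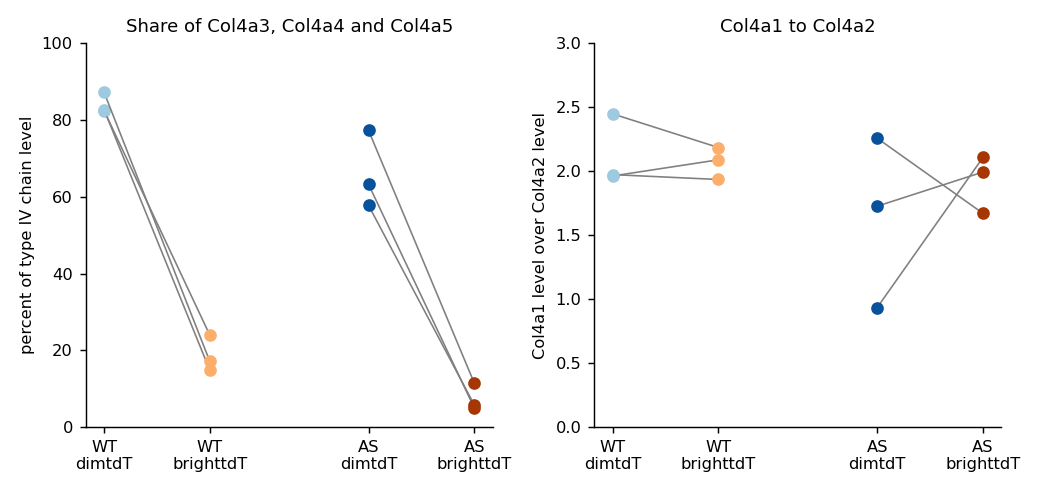
Left, the share of Col4a3, Col4a4 and Col4a5 in the summed length-scaled level of the type IV chains, in percent; right, the length-scaled level of Col4a1 over that of Col4a2. Points are libraries and lines join the libraries of 1 mouse, and the share falls from dimtdT to brighttdT in all 6 mice while the ratio does not move one way.

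The length-scaled ratio of *Col4a1* to *Col4a2* in the brighttdT GEC was 1.93, 2.18 and 2.09 in WT and 1.99, 2.10 and 1.67 in AS. In the dimtdT cells it was 1.97, 2.44 and 1.96 in WT and 1.72, 0.934 and 2.25 in AS, where the low value rests on 79 and 75 counts. The level of this ratio depends on the lengths used. In the authors' RPKM values, which divide by the summed length of all transcripts, it was 0.894 to 1.17 in the brighttdT and 0.500 to 1.31 in the dimtdT libraries. Differences of its log2 value between groups do not depend on the lengths. The log2 ratio differed between brighttdT and dimtdT by 0.14 ± 0.55 (SD, n = 6 mice), positive in 3 of 6 (p = 0.6875, exact two-sided paired permutation test, adjusted p = 0.6875). Between AS and WT it differed by -0.11 in the brighttdT (p = 0.5) and -0.46 in the dimtdT cells (p = 0.4, exact two-sided permutation tests, adjusted p = 0.6 each).

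The sixth chain, *Col4a6*, was low and uneven, with 4, 55 and 142 counts in WT-dimtdT, 107, 35 and 29 in AS-dimtdT, 61, 30 and 185 in WT-brighttdT and 27, 15 and 2 in AS-brighttdT libraries. It passed in AS brighttdT over dimtdT, where it was lower (log2 -2.08, SE 0.68, adjusted p = 0.0259). This call was lost with edgeR's version 3 fit (adjusted p = 0.0602) and in the fit of all 12 libraries (0.139). It was also lost without the dimtdT library of AS mouse 1 (log2 -1.34, 0.144) or the brighttdT library of AS mouse 2 (0.0671) or AS mouse 3 (0.0995). For AS over WT the log2 fold change of *Col4a6* in the brighttdT GEC was -2.63 (SE 0.82, adjusted p = 0.117). DESeq2 and edgeR's likelihood ratio test called it lower (adjusted p = 0.0265 and 0.0157), and no other alternative did. The log2 fold change was -1.66 without WT mouse 3 (adjusted p = 0.263) and -3.45 without AS mouse 1 (0.335).

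The genes that modify collagen prolines and lysines are given beside the share of all genes called, 25.3% in brighttdT over dimtdT of WT and 55.1% in that of AS, and no test compared the list with other genes. Of 14 tested, 6 were higher and 1 lower in the brighttdT GEC of WT, and 11 were higher in AS, with medians of 1.20 and 2.27 beside -0.04 and 0.02 over all genes. *P4ha2*, a prolyl 4-hydroxylase subunit, was higher by 3.58 on the log2 scale in WT (adjusted p = 0.000158) and 4.86 in AS (adjusted p = 1.04e-06). *Colgalt2*, a collagen galactosyltransferase, was higher by 2.76 (adjusted p = 0.000909) and 5.69 (adjusted p = 4.58e-08). *P3h2*, a prolyl 3-hydroxylase, was lower in WT by the same test (log2 -3.56, adjusted p = 0.00994). For AS over WT in the dimtdT cells 2 of 12 fell, *Crtap* (log2 -2.64, adjusted p = 0.0212), a partner of the prolyl 3-hydroxylases, and *Colgalt2* (log2 -2.15, adjusted p = 0.0317), where 6.42% of all genes were called lower, and DESeq2 called 7 of the 12, with 7 at an unadjusted p under 0.05. In the brighttdT GEC edgeR called 0 of 14 (6 at an unadjusted p under 0.05, and 2 with DESeq2).

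Among genes of collagen folding and secretion, *Sparc*, a matrix protein that binds collagen, was called in 4 of the 5 comparisons. It was higher in the brighttdT GEC of WT (log2 2.25, adjusted p = 0.000881) and AS (log2 4.78, adjusted p = 8.66e-08) and fell in the AS-dimtdT cells (log2 -1.57, adjusted p = 0.023). Its difference between the genotype effects was 2.58 (adjusted p = 0.00426). Of 11 tested, 2 were higher in brighttdT over dimtdT of WT, where 25.3% of all genes were called, and 5 were higher and 3 lower in AS, where 55.1% of all genes were called, among the last *Mia3* (log2 -1.10, adjusted p = 0.000661), which loads procollagen into its transport carriers. For AS over WT, 1 of 11 fell in the dimtdT cells, and 0 of 12 were called in the brighttdT GEC by edgeR (4 at an unadjusted p under 0.05, and 3 with DESeq2).

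*Loxl2*, a lysyl oxidase that crosslinks type IV collagen, was the gene called among 3 crosslinking enzymes tested for AS over WT in the dimtdT cells. *Loxl2* had 6.84, 3.21 and 8.43 CPM in WT and 0.424, 0.0829 and 0.718 CPM in AS (log2 -3.90, adjusted p = 0.0206), where 6.42% of all genes were called lower. It was higher by 4.36 in brighttdT over dimtdT of AS (adjusted p = 0.000107), and 0 of 3 were called by edgeR or by DESeq2 in WT (1 at an unadjusted p under 0.05). Its genotype effect differed between subpopulations by 5.84 (adjusted p = 0.00426). For AS over WT in the brighttdT GEC edgeR called 0 of 5 crosslinking enzymes and 0 of 4 receptors (2 and 1 at an unadjusted p under 0.05, and 1 of each with DESeq2). The heme peroxidases *Mpo*, *Epx* and *Lpo* had no row in either subpopulation. Of the type IV collagen receptors, *Ddr1* fell in the AS-dimtdT cells (1 of 5 tested, log2 -1.37, adjusted p = 0.0379), beside the same 6.42% of all genes called lower. *Itgb1* and *Itga1*, which form the α1β1 integrin, were higher in the brighttdT GEC of WT (log2 1.05 and 1.18, adjusted p = 0.00652 and 0.037) and AS (log2 1.85 and 1.31, adjusted p = 1.04e-05 and 0.000325), and *Itga2* was lower in both (log2 -4.63 and -3.66, adjusted p = 0.00114 and 0.000701).

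Other collagens of basement membranes and sheets, *Col15a1*, *Col18a1*, *Col8a1* and *Col6a3*, were higher in the brighttdT GEC in both genotypes (4 of 4 tested, medians 3.26 in WT and 4.38 in AS). Over all genes tested, 13.8% were called higher in WT and 28.6% in AS. *Col18a1*, whose end fragment is endostatin, fell in the AS-dimtdT cells (log2 -2.14, adjusted p = 0.023). In the brighttdT GEC edgeR called 0 of these 4 for AS over WT, with 0 at an unadjusted p under 0.05 and 0 with DESeq2, and log2 fold changes ran from -0.24 for *Col18a1* to 0.69 for *Col6a3*. The fibrillar collagen *Col1a2* rose there with *Col4a1* and *Col4a2*, from 15.1, 14.0 and 13.5 CPM in WT to 59.2, 32.1 and 53.7 CPM in AS (log2 1.69, SE 0.29, adjusted p = 0.0412). It was 1 of 4 fibrillar genes tested, and 0.188% of all genes were called higher in that comparison. The call of *Col1a2* was lost without WT mouse 3 (adjusted p = 0.103), AS mouse 1 (0.249) or AS mouse 3 (0.179). It was also lost with the proximal tubule covariate (0.394), the replicate block (0.0664), edgeR's version 3 fit (0.0604) and every gene with a count (0.0501).

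Over the 12 libraries, the genes most like each of the 7 were named by Pearson's r of log2 CPM among 11840 genes, as a description. The libraries come from 6 mice and lie in dimtdT and brighttdT clusters, so that r of *Col4a1*, *Col4a2*, *Pxdn* and *Serpinh1* mostly follows that gap. *Col4a3*, *Col4a4* and *Col4a5* had r of 0.06, 0.02 and -0.13 with *Col4a1*. Each of these chains had its highest mean level in the WT-dimtdT libraries. *Col4a1* was most like *App* (0.994), *Bcam* (0.994), *Pcdh12* (0.992), *Maged2* (0.992) and *Col4a2* (0.991), and *Col4a2* most like *App* (0.997), *Bcl2l2* (0.995), *Tsc22d1* (0.994), *Col4a1* (0.991) and *Csrp1* (0.991). *Pxdn* went with *Ccdc80* (0.998), *Sgce* (0.997), *Plat* (0.996), *Egfl7* (0.995) and *Esam* (0.994). *Serpinh1* went with *Acer2* (0.989), *Ripply3* (0.988), *Smco4* (0.988), *Trim47* (0.986) and *Ptprg* (0.985). *Col4a3* was most like *Col4a4* (0.921), then *Tiprl* (0.918), *Aif1l* (0.897), *Cd164* (0.892) and *Canx* (0.887). *Col4a4* was most like *Col4a5* (0.942), *Lgr4* (0.936), *Aif1l* (0.929), *Amt* (0.929) and *Rbpms2* (0.926). *Col4a5* was most like *Nit1* (0.982), *Amt* (0.951), *Col4a4* (0.942), *Aif1l* (0.922) and *Ivd* (0.911). Between the chains of the 2 trimers r ran from -0.18 (*Col4a2* with *Col4a5*) to 0.06 (*Col4a1* with *Col4a3*).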

How the data were processed

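RNA-seq was done on sorted dimtdT cells and brighttdT GEC of 3 WT and 3 AS mice. The authors aligned the reads with STAR 2.6.0c to GRCm38.p5 and Gencode M16 and deposited counts per gene, not normalized, in 1 table per subpopulation (17811 and 17521 genes, 15768 in both). The deposited RPKM values, which the authors computed over the summed length of all transcripts, served as an alternative for the ratio and the share. The deposited log2 fold changes, scores and p-values are the authors' own comparisons and were not used. ERCC spike-ins were left out.

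Counts were tested with edgeR 4.0.16 in R 4.3.3 (filterByExpr, TMM, quasi-likelihood test, Benjamini-Hochberg adjustment over all genes tested, threshold 0.05), after tests on simulated data. The main fit used edgeR's newer quasi-likelihood option, which had to be set. The default of this release is the version 3 fit, given here as an alternative. CPM used TMM library sizes of all 12 libraries, and per-kilobase levels the merged exons of Gencode M21. Log2 CPM for the correlations had a prior count of 2 and a mean above 1. The dimtdT and brighttdT libraries of a mouse are paired by its number in the labels, and their deviations from group means correlated at 0.102 to 0.274 in WT and 0.0796 to 0.385 in AS. Replicate pairs differed by 29.5 to 104 in chi-square per degree of freedom, so none was 1 library deposited again. The genes, the lists and the tests were chosen with earlier results of these data known. From each list at most 4 genes per comparison were named, by smallest adjusted p, and for each gene the 5 most like it. *Nphs1* and *Wt1* in single libraries, the values of *Col4a6*, the levels of called genes in each library and list genes named beside a call were chosen after their values were seen. Where a symbol had 2 identifiers, the one with more counts was used. Alternatives were RLE, library sizes alone, DESeq2 1.42.0, the likelihood ratio test, other filters, a replicate block, a proximal tubule covariate, all 12 libraries in 1 fit, each library left out and, added after seeing the data, edgeR's version 3 fit.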

Additional observations from a re-analysis of the deposited data

Results flagged for a closer look

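The effect of AS over WT differed between the brighttdT GEC and the dimtdT cells for each of the 7 genes by the interaction test, with differences of 2.92 for *Col4a1*, 2.66 for *Col4a2*, 2.25 for *Col4a3*, 2.28 for *Col4a4*, 4.14 for *Col4a5*, 2.45 for *Pxdn* and 3.23 for *Serpinh1* on the log2 scale. In the brighttdT GEC *Col4a1* and *Col4a2* were higher in AS, and in the dimtdT cells *Col4a3*, *Col4a4*, *Col4a5*, *Pxdn* and *Serpinh1* were lower. Endothelial markers differed in the same direction, by a median of 2.63.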

How the results depend on the processing

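For AS over WT in the brighttdT GEC 65 genes were called. DESeq2 called 1117, the likelihood ratio test 897, a fit of all 12 libraries 139, every gene with a count 39, the replicate block 16, and edgeR's version 3 fit and the proximal tubule covariate 0 (2906 and 1277 at an unadjusted p under 0.05). Without 1 library it was 0 to 281. Of the 7 genes 2 were called, 0 with the block (*Col4a1* and *Col4a2*, adjusted p = 0.0607 each), the version 3 fit or the covariate, and 0 to 2 without 1 library.

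In the dimtdT cells 1263 genes were called, 2213 with DESeq2, 2106 in the fit of all 12 libraries, 582 with the version 3 fit, 494 with the block, 1 with the covariate and 0 to 1825 without 1 library. Of the 7 genes 5 were called, 0 with the covariate and 0 to 6 without 1 library. The block lost the call of *Serpinh1* (adjusted p = 0.113). In these comparisons the WT and AS mice share only a number, and same-numbered mice deviated with correlations of -0.15 to 0.12.

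The interaction called 569 genes, 1186 with DESeq2, 1092 with the likelihood ratio test, 877 with the block and 252 to 857 without 1 library. The block, which there stands for the mouse, changed no call of the 7 genes in the interaction or between subpopulations.

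Directions that turned, all in the brighttdT GEC and none of them called, were with the covariate -0.020 for *Pxdn*, -0.35 for *Serpinh1*, 0.35 for *Col4a5* and 0.48 for *Col4a4*. Without 1 library *Col4a4* ran from -0.43 to 0.061 and *Col4a3* from -0.079 to 0.53. The difference in the log2 ratio of *Col4a1* to *Col4a2* between brighttdT and dimtdT ran from -0.066 to 0.26, below 0 without AS mouse 2. Over the 7 genes, 511 values kept their direction and side of the threshold, 57 lost a call, 6 gained one and 7 turned. The cause of these shifts was not tested. With 3 libraries a group, small changes could not be told from the spread between mice, and *Col4a5* rests on 17 to 104 counts in the AS libraries.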
